A study of Mus musculus with 48 samples.

Results

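The genes described here encode the integrin and laminin subunits of the mouse, 37 of the 54752 genes in the expression matrix. They were chosen by symbol alone among the protein-coding genes: names starting with Itga, names made of Itgb and a digit, and names made of Lama, Lamb or Lamc and a digit. That gave 18 integrin alpha, 8 integrin beta, 5 laminin alpha, 3 laminin beta and 3 laminin gamma subunits. RNA was sequenced from freshly isolated cells of 13 male C57BL/6 mice, aged 8 to 16 months by the sample labels, all of which carried eGFP knocked in at the endogenous Prox1 locus. Each mouse wore an osmotic pump for 5 to 6 weeks that delivered saline with BSA (ctrl, 4 libraries per population), angiotensin II in BSA (angII, 5 libraries), or angiotensin II with VEGFCc156s, a recombinant human VEGF-C carrying a cysteine-to-serine change (angII+VEGFC, 3 libraries). Each of 4 populations gave 12 libraries: heart and diaphragm lymphatic endothelial cells (LEC), heart blood endothelial cells (BEC) and cardiomyocytes, 48 in all. Endothelial cells were sorted as CD31+, CD45.2- and eGFP+ (LEC) or eGFP- (BEC), so the BEC gate can hold any other CD31+ cell without Prox1. Cardiomyocytes were pelleted at low speed and not sorted, and their libraries were sequenced in a batch of their own. The question behind the populations and treatments was how endothelial cells and cardiomyocytes of the heart differ and respond to angiotensin II, with or without a lymphatic growth factor.

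Integrins are cell-surface receptors made of 1 alpha and 1 beta chain, and the pair decides what the receptor holds on to: collagens, laminins, RGD-containing proteins such as fibronectin and vitronectin, or counter-receptors on other cells. Laminins are secreted trimers of an alpha, a beta and a gamma chain and form the sheet-like core of the basement membrane. Blood capillaries and cardiomyocytes lie on a continuous basement membrane, whereas the initial lymphatic vessels are known for a thin, interrupted one and for anchoring filaments that tie the cell to the surrounding matrix. Levels are given as TPM, the share of a library's transcripts scaled for transcript length and to a common total, and differences as log2 fold changes on log2(TPM + 1), which understate the change of genes near or under 1 TPM.

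RefSeq promoter windows, each 250 bases before to 50 after the annotated start (GRCm38.p6), were found for 23 of the 37 genes, 26 windows in all. Shown here are 4 of the subunits that differed between populations below and whose RefSeq start lay within 5 bases of the start of the matrix's gene model: a collagen receptor chain highest in BEC (Itga1), an RGD receptor chain highest in LEC (Itgav), a laminin alpha chain that was lower in LEC than in BEC (Lama5), and a beta chain highest in cardiomyocytes (Itgb5). Capitals mark the GC box, which reads GGGCGG on one strand and CCGCCC on the other, and both strands were read.
Itga1, chr13:115101915-115102214, minus strand: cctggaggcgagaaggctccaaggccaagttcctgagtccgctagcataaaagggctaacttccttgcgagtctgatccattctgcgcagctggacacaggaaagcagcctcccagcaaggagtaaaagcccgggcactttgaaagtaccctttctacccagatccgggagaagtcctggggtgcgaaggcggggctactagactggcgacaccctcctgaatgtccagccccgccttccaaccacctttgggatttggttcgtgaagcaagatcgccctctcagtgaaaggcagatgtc
Itgav, chr2:83724147-83724446, plus strand: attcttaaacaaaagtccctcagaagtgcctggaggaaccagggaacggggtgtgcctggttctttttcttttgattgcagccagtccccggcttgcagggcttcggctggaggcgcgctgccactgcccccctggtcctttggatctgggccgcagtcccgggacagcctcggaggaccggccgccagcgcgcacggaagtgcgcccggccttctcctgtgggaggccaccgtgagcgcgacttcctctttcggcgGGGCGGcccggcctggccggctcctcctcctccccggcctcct
Lama5, chr2:180225810-180226109, minus strand: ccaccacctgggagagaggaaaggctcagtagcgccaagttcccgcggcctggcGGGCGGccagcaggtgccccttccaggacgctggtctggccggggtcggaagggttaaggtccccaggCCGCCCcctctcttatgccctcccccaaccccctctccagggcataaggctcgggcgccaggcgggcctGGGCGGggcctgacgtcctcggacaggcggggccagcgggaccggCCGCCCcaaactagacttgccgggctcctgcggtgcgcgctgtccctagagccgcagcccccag
Itgb5, chr16:33829415-33829714, plus strand: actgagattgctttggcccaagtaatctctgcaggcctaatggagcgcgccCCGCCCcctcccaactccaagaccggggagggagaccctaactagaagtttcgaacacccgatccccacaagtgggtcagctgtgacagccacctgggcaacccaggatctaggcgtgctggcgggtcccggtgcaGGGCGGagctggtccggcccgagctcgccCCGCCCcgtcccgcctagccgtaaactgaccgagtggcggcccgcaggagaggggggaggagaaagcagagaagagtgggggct
The Lama5 window held 4 GC boxes, the Itgb5 window 3, the Itgav window 1 and the Itga1 window 0. Their GC contents were 72.7%, 65.7%, 67.3% and 56.7% in that order, against a median of 52.7% over all 32851 RefSeq windows. The window of Itgam, which met the same conditions and is not shown, held 1 GC box and had a GC content of 50.3%. A GC box stood in 12 of the 26 integrin and laminin windows and in 35.7% of all windows. The ETS core CCGGAA, the TATA box TATAAA, the forkhead core GTAAACA and the E-box CACGTG were also searched on both strands, and none of them occurred in the 4 windows shown. They occurred in 2, 0, 0 and 0 of the 26 windows and in 14.9%, 13.6%, 3.65% and 7.15% of all windows.

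The populations carried their own defining genes. A sum of 6 lymphatic genes reached 18070 to 31973 TPM in heart LEC and 22361 to 43195 TPM in diaphragm LEC, but 214 to 705 TPM in BEC and 96.2 to 282 TPM in cardiomyocytes. A sum of 7 blood endothelial genes lay at 13376 to 20298 TPM in BEC and at or below 7693 TPM elsewhere. A sum of 7 cardiomyocyte genes was 9775 to 25039 TPM in cardiomyocytes and at most 876 TPM elsewhere. Markers of other cells were present as well: the cardiomyocyte libraries held 620 to 2106 TPM of 11 leukocyte genes and 2413 to 6502 TPM of 7 fibroblast genes, against 41.1 to 107 TPM and 466 to 4048 TPM in BEC. They also held 1907 to 3502 TPM of the blood endothelial genes, with a median of 2826 TPM against 17487 TPM in BEC, and 950 to 1963 TPM of 7 mural cell genes. In diaphragm LEC ctrl replicate 3, 6 Schwann cell genes summed to 358 TPM and 7 mural cell genes to 676 TPM, against at most 5.54 and 81.9 TPM in the other 3 ctrl libraries. More genes reached 1 TPM in the LEC of angII mice, with a median of 18359 in heart LEC ctrl against 22814 in angII, and 16861 in diaphragm LEC ctrl against 20742 in angII. In such bulk libraries, more cells of a type and more RNA per cell cannot be told apart. Read depth is unknown, because TPM keeps none.

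Among the integrin alpha chains, Itga6 (laminin receptor chain) was the most abundant in heart LEC and BEC, Itga5 (fibronectin receptor chain) in diaphragm LEC, and Itga7 (the muscle laminin receptor chain) in cardiomyocytes. Itga6 averaged 90.1 ± 25.4 TPM (SD, n = 12) in heart LEC, 59.3 ± 12.6 in diaphragm LEC, 256 ± 57.0 in BEC and 38.7 ± 15.7 in cardiomyocytes. Itga5 averaged 72.0 ± 17.0, 76.8 ± 19.5, 92.1 ± 15.3 and 37.2 ± 13.2 TPM in the same order. Itga7 averaged 7.05 ± 6.65, 5.73 ± 6.47, 15.7 ± 4.93 and 39.4 ± 7.37 TPM. The means of neighbours in the order lay within the larger of their SDs for Itga6 and Itga5 in heart LEC, for Itga5 and Itga9 in diaphragm LEC, and for Itga7, Itga6 and Itga5 in cardiomyocytes. Within single libraries, Itga6 lay above Itga5 in 11 of 12 heart LEC libraries and Itga5 above Itga9 in 9 of 12 diaphragm LEC libraries. In cardiomyocytes Itga7 lay above Itga6 in 7 of 12 and Itga6 above Itga5 in 6 of 12. In BEC, Itga6 lay above the next chain, Itga1 at 125 ± 19.3 TPM, by more than the SD of either. As a share of all integrin alpha transcripts within a library, Itga6 averaged 45.8% in BEC, Itga9 (a receptor chain for fibronectin's extra domain, tenascin-C and osteopontin) 18.8% in heart LEC and 19.1% in diaphragm LEC against 2.70% in BEC, and Itga7 20.5% in cardiomyocytes.

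Itgb1, the common partner of the collagen, laminin and fibronectin receptor alpha chains, was the most abundant subunit in all 4 populations. It averaged 446 ± 66.8 TPM in heart LEC, 444 ± 51.4 in diaphragm LEC, 561 ± 61.2 in BEC and 221 ± 43.3 in cardiomyocytes, and made up 81.6%, 82.9%, 92.6% and 71.3% of the integrin beta transcripts. Lama4, the alpha chain best known from endothelial basement membranes, dominated the laminin alpha chains with 92.7%, 97.2%, 85.8% and 67.2% of their transcripts. In cardiomyocyte libraries, which carried the blood endothelial genes given above, Lama2, the alpha chain of the muscle laminins, took a further 21.5%. Of the beta chains, Lamb2 outweighed Lamb1 in heart LEC, BEC and cardiomyocytes, with a median Lamb1 to Lamb2 ratio of 0.609, 0.514 and 0.343. In diaphragm LEC the order was the other way round, with a ratio of 1.21 that lay between 1.07 and 1.55 in the 12 libraries.

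**Figure D1:**
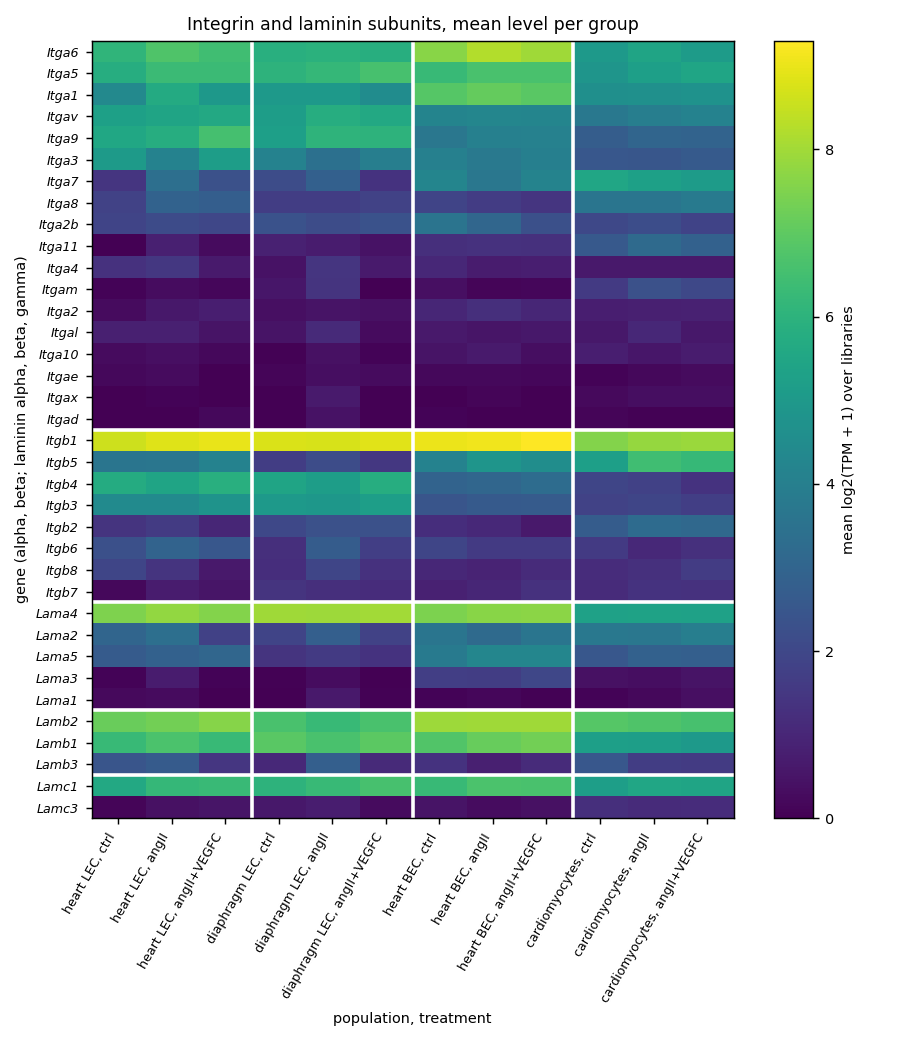
Heat map of the subunits, coloured by the mean log2(TPM + 1) over the libraries of the 3 treatment groups of each population (n = 4, 5 and 3 libraries for ctrl, angII and angII+VEGFC). Itgb1 is the brightest row in all 4 populations, and Lama4 and Lamb2 stand out among the laminins.

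**Figure D2:**
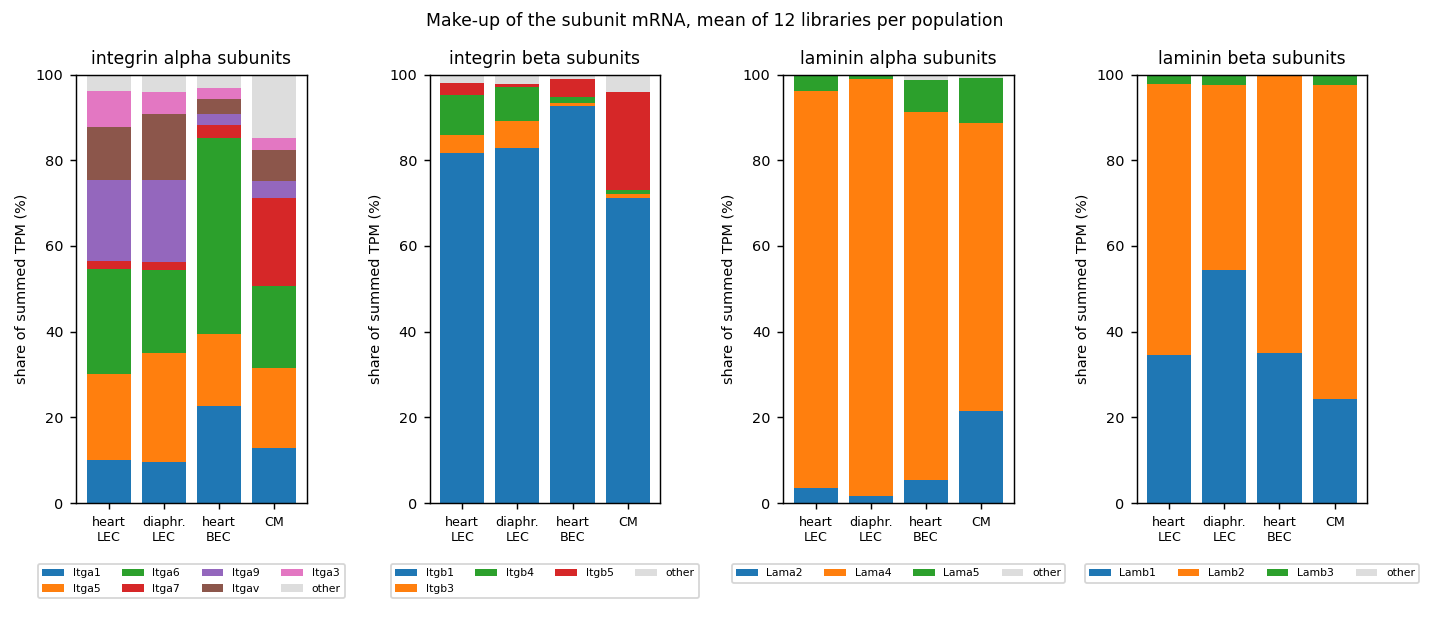
Stacked bars of the share (%) that each subunit took of the summed TPM of its family, as the mean of 12 libraries per population; heart LEC, diaphragm LEC, heart BEC and cardiomyocytes (CM) are shown from left to right, and grey stands for the remaining subunits. Itga9, Itgav and Itgb4 take a larger part in the LEC columns, Itga6 and Itga1 in the BEC column, and Itga7, Itgb5 and Lama2 in the cardiomyocyte column.

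Heart LEC differed from heart BEC in most of their integrin receptors. They carried more of the laminin receptor chain Itgb4, of the RGD receptor chains Itgav and Itgb3 and of Itga9, and less of the collagen receptor chain Itga1 and the laminin receptor chain Itga6. Of 30 subunits that reached 1 TPM in 3 or more of the 24 libraries, 9 were higher and 13 lower in heart LEC (limma, adjusted p < 0.05 over all genes tested), where 13% of all 29402 genes tested were higher and 10% lower. The median log2 fold change was -0.36 over the subunits and 0.20 over all genes.

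Itgb4 pairs with Itga6 and links the cell to intermediate filaments in hemidesmosomes. Its level in heart LEC was 30.1 TPM at the lowest, 42.6 at the median and 90.2 at the highest, against 5.03, 7.82 and 11.2 TPM in BEC. The libraries did not overlap, and Itgb4 was higher in the LEC of 12 of 12 mice (log2 fold change 2.53, SE 0.18, adjusted p = 2.0e-11). Its partner went the opposite way. Itga6 had a lowest, median and highest level of 39.4, 91.0 and 130 TPM in heart LEC and of 185, 251 and 341 TPM in BEC. It was lower in the LEC of 12 of 12 mice, again with no overlap (-1.52, SE 0.11, adjusted p = 1.7e-11). As a result of both, the median ratio of Itgb4 to Itga6 TPM was 0.555 in heart LEC (0.231 to 1.29) and 0.0326 in BEC (0.0196 to 0.0473).

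Itgb3 and Itgav together form the vitronectin receptor. Itgb3 stood at 12.9, 22.2 and 39.4 TPM (lowest, median, highest) in heart LEC and 3.09, 5.12 and 7.20 TPM in BEC, without overlap (1.95, SE 0.20, adjusted p = 2.2e-08). Itgav stood at 30.1, 43.4 and 63.4 TPM in heart LEC and 10.4, 17.2 and 32.4 TPM in BEC, where only the ends of the ranges met (1.20, SE 0.15, adjusted p = 7.4e-07). Both were higher in the LEC of 12 of 12 mice, and in the ctrl libraries alone Itgav was not called (1.08, adjusted p = 0.067). Itgb5, another of the RGD beta chains that pair with Itgav, had medians of 11.9 TPM in heart LEC and 25.9 TPM in BEC. It was not called (-0.78, adjusted p = 0.075), although with each mouse as a replicate block it passed the test as lower in LEC (adjusted p = 0.033). The ratio of Itgb3 to Itgb5 had a median of 1.39 in heart LEC and 0.206 in BEC.

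Itga9 is a chain that lymphatic valves are known to need. It ranged from 16.5 to 128 TPM with a median of 66.1 in heart LEC and from 8.59 to 30.4 TPM with a median of 14.4 in BEC, and was higher in the LEC of 12 of 12 mice (1.97, SE 0.25, adjusted p = 7.2e-07). The size of the difference depended on the sequencing batch given in the labels, with a log2 fold change of 0.98 within batch 1 and 2.96 within batch 2. Both passed the test.

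Itga1, a collagen receptor chain, fell from 88.1 to 151 TPM in BEC (median 128) to 16.1 to 73.2 TPM in heart LEC (median 32.1), with no overlap and a lower level in the LEC of 12 of 12 mice (-1.88, SE 0.16, adjusted p = 5.8e-10). A read-through gene, Gm49395, overlaps 66649 bases of Itga1 on the same strand and averaged 30.6 TPM in BEC and 8.97 TPM in heart LEC, so reads of the shared exons may be divided between them. Itga7 averaged 7.05 TPM in heart LEC and 15.7 TPM in BEC (-1.51, SE 0.39, adjusted p = 0.0059), was lower in the LEC of 10 of 12 mice and was not called within batch 1 (adjusted p = 0.17). Smaller called differences were found for Itga5 (-0.38) and Itgb1 (-0.34), lower in 12 and 11 of 12 mice, and for Itga3 (0.79), a laminin receptor chain that was higher in 11 of 12. The remaining called integrins were Itgb6 (0.92) and Itga8 (0.84), which were higher in heart LEC, and Itga2b (-1.03), Itga11 (-0.88) and Itga2 (-0.58), which were lower. Itga11 and Itga2 each reached 1 TPM in 2 heart LEC and 5 BEC libraries. They passed the filter only through BEC, and their values lay near the floor.

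Laminin chains split between the populations. Lamb3, a beta chain known from epithelial basement membranes, was higher in heart LEC by 1.23 on the log2 scale. It ranged from 0 to 14.1 TPM with a median of 4.15 in heart LEC and from 0.571 to 3.49 TPM with a median of 0.944 in BEC (SE 0.33, adjusted p = 0.0068). Its ranges overlapped, it was higher in the LEC of 11 of 12 mice, and it lost its call in the ctrl libraries alone (adjusted p = 0.35) and within either batch (adjusted p = 0.083 and 0.093). Lama3, an alpha chain of the same epithelial laminin, went the other way, from 1.59 to 4.71 TPM in BEC to 0 to 1.76 TPM in heart LEC (-1.43, SE 0.20, adjusted p = 3.7e-06). Lama3 reached 1 TPM in 1 heart LEC library and 12 BEC libraries, so it passed the filter only through BEC. Lama5, the alpha chain added to vascular basement membranes as they mature, had a lowest, median and highest level of 1.10, 7.05 and 21.4 TPM in heart LEC and 8.61, 18.2 and 25.3 TPM in BEC. It was lower in the LEC of 11 of 12 mice (-1.23, SE 0.26, adjusted p = 0.00078), but was not called in the ctrl libraries alone (adjusted p = 0.23) or within batch 1 (adjusted p = 0.0997). Lamb1 (-0.63), Lamb2 (-0.61) and Lamc1 (-0.51) were lower as well, Lamb2 in 12 of 12 mice. Lama4 had medians of 197 and 200 TPM and did not pass the test, with a log2 fold change of 0.05 and a 95% interval of -0.13 to 0.24.

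The split between higher and lower genes in this comparison depended on the scaling. After quantile normalization 2581 genes were higher and 3683 lower in heart LEC, against 3813 and 2951 as deposited. Among the subunits 7 were then higher and 14 lower, none changed sign, Itga8 and Itgb6 lost their calls and Itgb7 gained one.

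**Figure D3:**
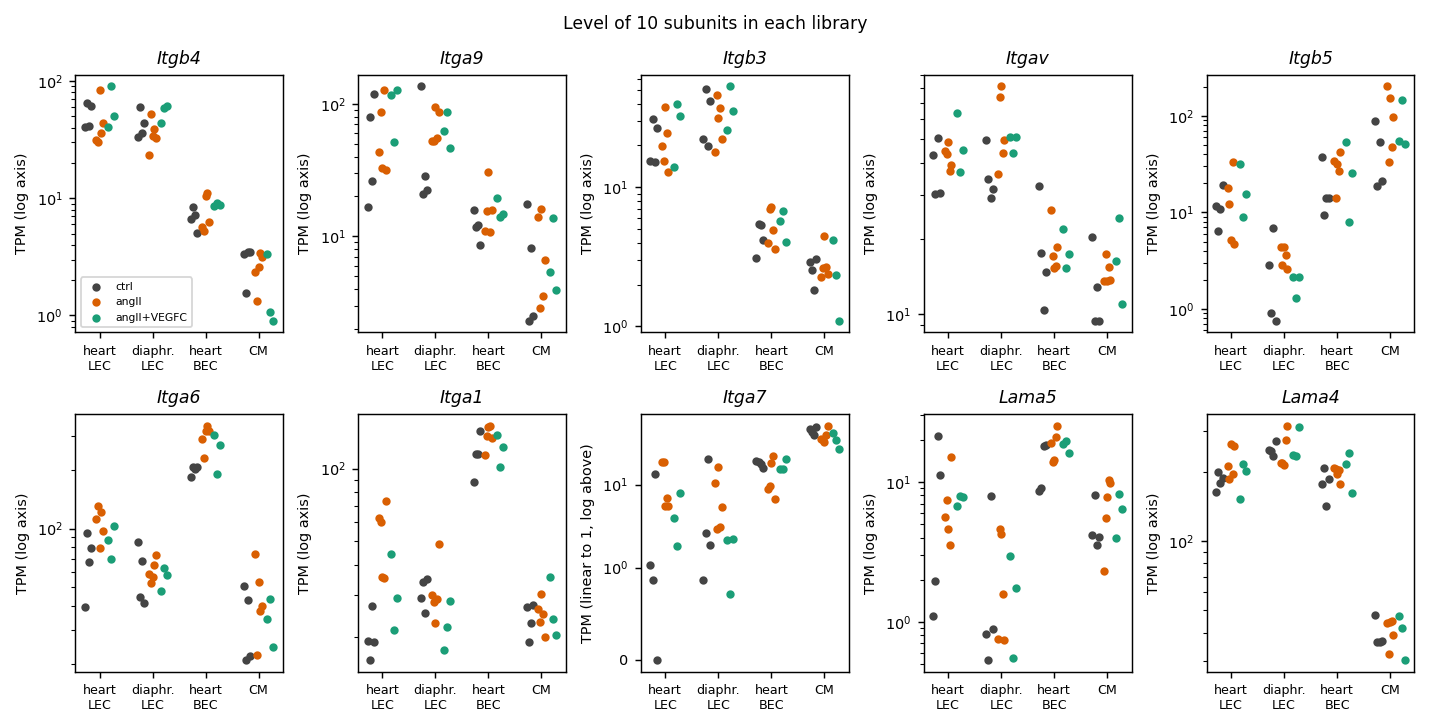
TPM of 10 subunits, on log axes (for Itga7 linear up to 1 TPM), in heart LEC, diaphragm LEC, heart BEC and cardiomyocytes (CM). Each point is 1 library of the ctrl (grey), angII (orange) or angII+VEGFC (green) group. For Itgb4, Itgb3, Itga1 and Itga6 the heart LEC points do not overlap the BEC points.

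Fewer subunits separated heart LEC from diaphragm LEC. Of 31 subunits tested, 4 were higher and 0 lower in heart LEC (limma), where 1.79% of all genes tested were higher and 1.39% lower. The subunits higher in the heart were Itgb5, Lama5, Lamb2 and Itga6. With an unadjusted p below 0.05, 8 of 31 were higher and 6 lower, where 8.95% of all genes were higher and 4.96% lower. The median log2 fold change was 0.07 over the subunits and 0.11 over all genes.

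Itgb5 had a lowest, median and highest level of 4.74, 11.9 and 33.3 TPM in heart LEC and 0.757, 2.72 and 6.98 TPM in diaphragm LEC. It was higher in the heart of 11 of 11 mice that gave both (1.89, SE 0.31, adjusted p = 0.00027). Lamb2 stood at 122, 160 and 221 TPM in heart LEC and 47.0, 96.1 and 139 TPM in diaphragm LEC, and was also higher in the heart of 11 of 11 mice (0.85, SE 0.13, adjusted p = 0.00015). For both genes the ranges met only at their ends. Lama5 had medians of 7.05 and 1.23 TPM and was higher in 11 of 11 mice (1.33, SE 0.35, adjusted p = 0.028), and Itga6 had medians of 91.0 and 57.9 TPM and was higher in 9 of 11 (0.57, SE 0.15, adjusted p = 0.036).

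The calls of Lama5 and Itga6 depended on the fit. Lama5 was not called in 12 of the 24 fits that left out 1 library or after quantile normalization (adjusted p = 0.139), and Itga6 was not called in 15 of those 24 fits. With the mouse as a replicate block, 3 subunits were higher and 2 lower. The call of Itga6 was lost (adjusted p = 0.086, with a range of 0.00014 to 0.91 over all alternatives). Lama4 was called as lower in the heart (-0.39, adjusted p = 0.0052 with the block, against -0.33 and 0.064 without). Itgb3 was called as lower as well (-0.57 with the block, adjusted p = 0.030). Lama4 was lower in the heart LEC of 11 of 11 mice, with medians of 197 and 242 TPM. The count of 4 became 2 without heart LEC ctrl replicate 4, angII replicate 1 or 2 or angII+VEGFC replicate 3, and also without diaphragm LEC ctrl replicate 4, angII replicate 4 or angII+VEGFC replicate 1. It stayed at 4 without diaphragm LEC ctrl replicate 3, which held the Schwann and mural cell genes. In the 8 ctrl libraries alone and within batch 1 it was 0. The heart LEC carried 107 to 876 TPM of the cardiomyocyte genes and the diaphragm LEC 5.54 to 476 TPM, and the fibroblast genes summed to 745 to 1779 TPM and 145 to 1204 TPM; their part in these differences was not tested.

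None of the integrins called as higher in heart LEC than in BEC was called between the lymphatic populations in the main fit. Itgb4 averaged 51.3 ± 19.8 TPM in heart LEC and 43.0 ± 12.3 TPM in diaphragm LEC, Itga9 71.6 ± 42.8 and 62.0 ± 33.9 TPM, and Itgav 42.8 ± 9.18 and 48.0 ± 15.9 TPM. The log2 differences had 95% intervals of -0.15 to 0.58, -0.51 to 0.79 and -0.44 to 0.18 in that order. Itga3 (0.89), Itga8 (0.81), Itgb6 (0.64) and Itgb3 (-0.48) differed more, each with an unadjusted p below 0.05 (limma). Their adjusted p-values were 0.136, 0.161, 0.278 and 0.295.

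Cardiomyocyte libraries differed from BEC in both directions, with less of Itga6, Itga1 and Lama4 and more of Itga7, Itgb5 and Itgb2. Of 33 subunits tested, 9 were higher and 15 lower in cardiomyocytes (limma), where 11% of all 23213 genes tested were higher and 65.2% lower. The median log2 fold change was -0.30 over the subunits and -0.61 over all genes, so changes are read against a downward shift of the whole table. Batch and population cannot be told apart here, because all cardiomyocyte libraries were of batch 3.

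Itga7, the alpha chain of the main laminin receptor of striated muscle, was one of the subunits above BEC without overlap. Its lowest, median and highest levels were 26.8, 39.6 and 51.3 TPM in cardiomyocytes and 6.67, 16.8 and 22.2 TPM in BEC (1.32, SE 0.15). Itgb5 was higher in the cardiomyocytes of 12 of 12 mice, with 18.7, 54.7 and 203 TPM against 7.89, 25.9 and 54.0 TPM, and its ranges overlapped (1.47, SE 0.33, adjusted p = 0.00035). In the ctrl libraries alone it was not called (1.14, adjusted p = 0.067). Itgb5 made up 23.0% of the integrin beta transcripts of cardiomyocytes.

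The collagen receptor chain Itga11 (1.62, SE 0.32) and the RGD receptor chain Itga8 (1.97, SE 0.20), both known from fibroblasts and other mesenchymal cells, were higher in cardiomyocyte libraries. Itga8 stood at 6.18, 10.9 and 28.6 TPM against 1.17, 2.18 and 6.41 TPM in BEC. The leukocyte chains Itgb2 (2.02, SE 0.19) and Itgam (1.78, SE 0.18), which together form the receptor Mac-1, were also higher, each in 12 of 12 mice and without overlap. Itgb2 was 4.21 to 14.7 TPM in cardiomyocyte libraries and 0.305 to 2.62 TPM in BEC, and Itgam was 0.789 to 5.51 and 0 to 0.406 TPM. Itgam reached 1 TPM in 11 cardiomyocyte and 0 BEC libraries, so it passed the filter only through cardiomyocytes. The medians of the fibroblast and leukocyte marker sums were also higher in cardiomyocyte libraries than in BEC. The part of such cells in the levels of Itga11, Itga8, Itgb2 and Itgam was not tested.

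The lower subunits were led by the endothelial receptor and laminin chains. Itga6 (-2.76, SE 0.16), Itga1 (-2.29, SE 0.09), Lama4 (-2.24, SE 0.09) and Lamb1 (-1.91, SE 0.15) were lower in 12 of 12 mice without overlap. Lama4 stood at 30.5, 40.4 and 47.9 TPM in cardiomyocytes and 142, 200 and 242 TPM in BEC. The part of blood endothelial RNA in the cardiomyocyte levels of these 4 genes was not tested. Itgb1 fell by 1.36 on the log2 scale, from 446 to 640 TPM in BEC to 165 to 296 TPM. Itga3 (-1.38), Lama3 (-1.37), Lama5 (-1.35), Itgb4 (-1.35), Itga5 (-1.34), Lamb2 (-1.22) and Lamc1 (-1.13) were lower by similar amounts, and Itga9 (-1.02), Itga2b (-0.99) and Itgb3 (-0.73) by less. The 3 remaining higher chains were Lamb3 (0.87), Lamc3 (0.79) and Itgb8 (0.34). Lamc3 reached 1 TPM in 9 cardiomyocyte and 0 BEC libraries, and Lama3 in 0 and 12. Each of these passed the filter through 1 population only. Lama2 had medians of 11.5 and 7.58 TPM and was not called (0.31), but after quantile normalization it was called as higher in cardiomyocytes (1.00, adjusted p = 0.0012).

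Quantile normalization changed this comparison more than either of the others. It turned the split over all genes from 2551 higher and 15137 lower to 4951 and 7097, and that over the subunits from 9 and 15 to 15 and 11. No called subunit changed sign, but Itga2b, Itga9, Itgb3 and Lamc1 lost their calls as lower. The subunits that stayed lower did so by smaller amounts: Itga6 at -2.02, Itga1 at -1.50, Lama4 at -1.48, Lamb1 at -1.12, Itgb4 at -0.86, Lama3 at -0.84, Itgb1 at -0.76, Itga3 at -0.72, Lama5 at -0.65 and Itga5 and Lamb2 at -0.53 each. Those that were higher moved the other way, with Itga7 at 2.10 and Itgb5 at 2.24. Beside Lama2, Itga4, Itga10, Itgal, Itgav and Itgb7 were then called as higher in cardiomyocytes, whereas with the mouse as a replicate block Itgav was called as lower (adjusted p = 0.039).

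**Figure D4:**
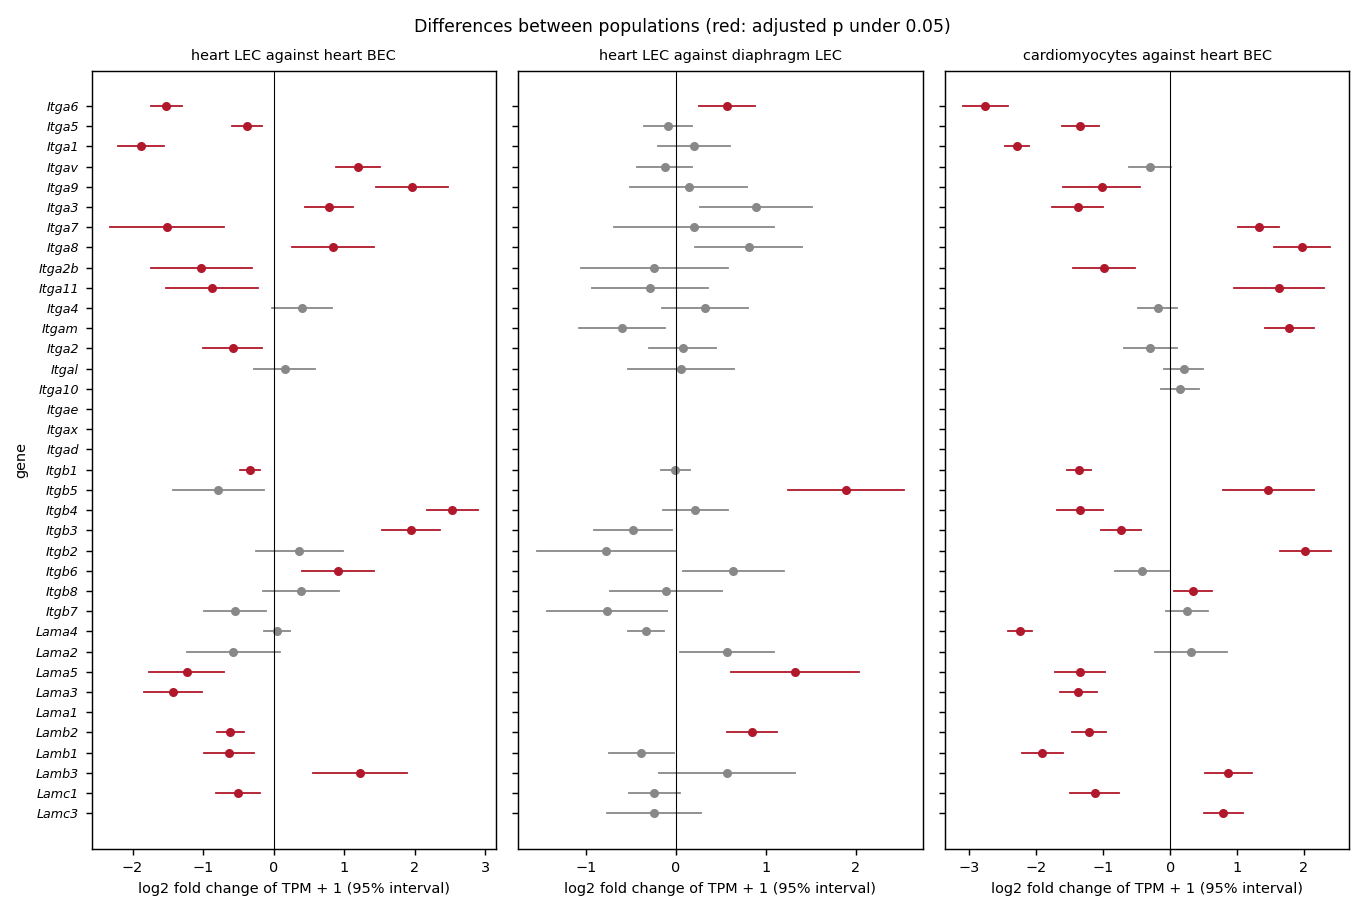
Log2 fold changes with 95% intervals of subunits tested in the 3 population comparisons (heart LEC against BEC, heart LEC against diaphragm LEC, cardiomyocytes against BEC); red points have an adjusted p below 0.05 and grey points do not. Heart LEC against BEC holds 21 red points, heart LEC against diaphragm LEC 4 and cardiomyocytes against BEC 24.

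Some subunits were at or near the floor in the endothelium. The 7 leukocyte integrin chains summed to a median of 3.57 TPM in heart LEC, 7.42 in diaphragm LEC, 2.91 in BEC and 13.6 in cardiomyocyte libraries. Itgad, Itgae, Itgax and the embryonic laminin chain Lama1 stayed under the filter in every comparison, with medians between 0 and 0.194 TPM. Itgad lies opposite Cox6a2, a muscle cytochrome oxidase subunit that averaged 1712 TPM in cardiomyocytes, and the library kit did not keep strand. The epithelial chain Itgb6 and the TGF-beta-activating chain Itgb8 were low throughout, with population medians of 1.53 to 6.42 and 1.04 to 1.68 TPM.

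Genes that work with the integrins and laminins were read from the same fits, so the shares of all genes called there (13% higher and 10% lower for heart LEC against BEC, 1.79% and 1.39% for heart against diaphragm LEC, 11% and 65.2% for cardiomyocytes against BEC) are the background of their counts. Of 29 tested adhesion adaptors, which link integrin tails to actin, 7 were higher and 10 lower in heart LEC than in BEC. The kindlin of blood cells, Fermt3 (1.65), was higher and Fermt2 (-0.98), the kindlin of most adherent cells, lower. The paired adaptors Lims1 and Lims2, which both bind the kinase Ilk, moved in opposite directions: Lims1 averaged 396 TPM in heart LEC and 185 TPM in BEC (1.09), and Lims2 137 and 1039 TPM (-3.41). Between heart and diaphragm LEC 3 of 30 adaptors were higher and 2 lower, again with Lims2 (2.48) and Lims1 (-0.47) in opposite directions. In cardiomyocytes 6 of 29 were higher and 22 lower than in BEC, where 65.2% of all genes were lower, led by the muscle protein Itgb1bp2 (4.27) and by Kank3 (-2.89).

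Of 20 basement membrane and laminin-receptor partners, 4 were higher and 9 lower in heart LEC than in BEC. Col18a1 (2.43) was the most raised and the collagens Col15a1 (-2.87) and Col4a2 (-1.94) and the laminin alpha-5 receptor Bcam (-1.92) were the most lowered. Against diaphragm LEC 4 were higher and 2 lower, among them the laminin-binding netrin Ntn4 (1.26), perlecan Hspg2 (1.09) and Bcam (1.08). In cardiomyocytes 7 were higher and 11 of 20 lower than in BEC, again with 65.2% of all genes lower: the sarcoglycans Sgca (3.97) and Sgcd (1.61) rose, and Hspg2 (-2.97) and agrin Agrn (-2.52) fell.

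Among 17 tested integrin ligands 7 were higher and 5 lower in heart LEC than in BEC. Osteopontin Spp1 (5.42), periostin Postn (3.77) and fibronectin Fn1 (2.30), ligands of RGD receptors, rose, and Vcam1 (-1.90), the leukocyte counter-receptor, fell. Spp1 averaged 115 TPM in heart LEC, 118 TPM in diaphragm LEC and 1.76 TPM in BEC, and Fn1 345, 87.4 and 67.1 TPM. Between heart and diaphragm LEC 6 of 17 were higher, led by Postn (3.57), and 2 lower. In cardiomyocytes 6 of 15 were higher, led by Spp1 (5.59), and 7 of 15 were lower, against 65.2% of all genes. At the median, the leukocyte genes summed to 962 TPM in cardiomyocyte libraries and 59.8 TPM in BEC, and the fibroblast genes to 4021 and 725 TPM. The fibroblast medians were 1278 TPM in heart LEC and 349 TPM in diaphragm LEC. The part of such cells in the ligand levels was not tested.

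Neither angiotensin II nor the addition of VEGFCc156s changed a subunit at an adjusted p below 0.05 in any population (limma, 0 calls in 12 contrasts). The share of all genes tested that passed was 0.0261% for angII against ctrl in heart LEC, 0.0892% for angII against ctrl and 0.663% for angII+VEGFC against ctrl in cardiomyocytes, and 0% in the other 9 contrasts. Counts at an unadjusted p below 0.05 are therefore given with the same share over all genes, and those genes are named with their values but not called.

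In heart LEC 7 of 27 subunits had an unadjusted p below 0.05 for angII against ctrl, where 10.9% of all genes did. The median log2 fold change was 0.35 over the subunits and 0.23 over all genes. Itga1 was 19.2, 16.1, 26.9 and 19.1 TPM in the ctrl libraries, 62.6, 59.9, 35.6, 35.1 and 73.2 TPM in angII, and 44.3, 21.5 and 29.2 TPM in angII+VEGFC. Every angII library lay above every ctrl library, while the angII+VEGFC libraries overlapped both groups. The log2 fold change for angII against ctrl was 1.27 (SE 0.31, adjusted p = 0.169), with 1.23 within batch 1 and 1.34 within batch 2. Over 16 alternatives its adjusted p lay between 0.099 and 0.46.

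Itga3, the laminin receptor chain best known from epithelium, had the opposite pattern. It was 38.7, 32.4, 35.3 and 26.7 TPM in ctrl, 23.4, 13.5, 19.9, 15.0 and 11.9 TPM in angII, and 24.2, 54.6 and 31.9 TPM in angII+VEGFC. All 5 angII libraries lay below all ctrl libraries (-0.96, SE 0.27, adjusted p = 0.249) and below all angII+VEGFC libraries (angII+VEGFC against angII 1.02, SE 0.32, adjusted p = 0.413). These contrasts share the angII libraries. Itga6 was 39.4 to 94.8 TPM in ctrl, 79.2 to 130 TPM in angII and 69.8 to 104 TPM in angII+VEGFC, with overlap (angII against ctrl 0.74, SE 0.21, adjusted p = 0.250; angII+VEGFC against angII -0.50, adjusted p = 0.477).

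The heart LEC groups differed in marker levels too. The 7 blood endothelial genes, all of which were at 1 TPM or more on average, summed to 1732 to 3302 TPM in ctrl, 3278 to 7693 TPM in angII and 2131 to 2607 TPM in angII+VEGFC. The 6 lymphatic genes summed to 22753 to 31973 TPM in ctrl and 18070 to 25322 TPM in angII. BEC held more Itga1 and Itga6 and less Itga3 than LEC, and the part of these markers in the angII values was not tested. Between angII+VEGFC and angII, 2 subunits had an unadjusted p below 0.05, where 10.8% of all genes did; beside Itga3 this was Lama2, with 6.68 to 15.1 TPM in angII and 0.535, 5.32 and 3.31 TPM in angII+VEGFC (-1.23, adjusted p = 0.443). Against ctrl, 3 did in angII+VEGFC, where 4.94% of all genes did: Itgb1 (0.43), Itga9 (0.74) and Lamb2 (0.49), each with an adjusted p of 0.915. Of the 20 basement membrane partners, 9 had an unadjusted p below 0.05 for angII against ctrl, all with higher levels in angII, where 8.94% of all genes did in that direction, and 0 were called.

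**Figure D5:**
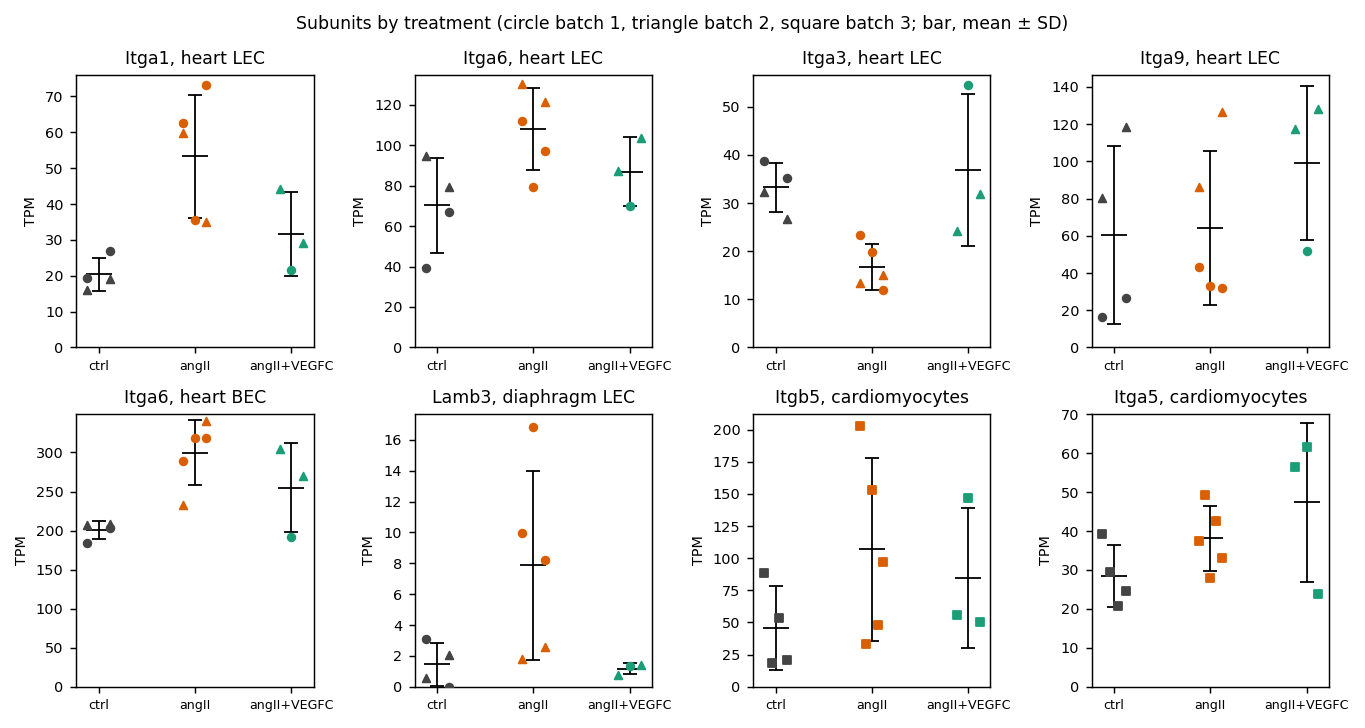
TPM of 8 of the subunits named in the treatment contrasts, with 1 point per library in the ctrl, angII and angII+VEGFC groups (circles batch 1, triangles batch 2, squares batch 3) and black bars for the mean ± SD of a group. Itga1 in heart LEC and Itga6 in BEC show angII libraries above all ctrl libraries, and Itga3 in heart LEC shows angII libraries below both other groups.

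In diaphragm LEC 4 of 30 subunits had an unadjusted p below 0.05 for angII against ctrl, where 15.3% of all genes did. Lamb3 was 3.12, 0.576, 0 and 2.08 TPM in ctrl, 9.96, 1.78, 16.8, 2.55 and 8.24 TPM in angII, and 0.756, 1.35 and 1.42 TPM in angII+VEGFC. Its ctrl and angII values overlapped (1.66, SE 0.55, adjusted p = 0.297), and the difference was 2.59 within batch 1 and 0.51 within batch 2. The epithelial chain Itgb6 (1.43, adjusted p = 0.297) and the leukocyte and VCAM1-binding chain Itga4 (0.97, adjusted p = 0.305) had higher values in all 5 angII libraries than in all 4 ctrl libraries. Itga4 lay near the floor, with a median of 0.847 TPM over the 12 diaphragm LEC libraries. It reached 1 TPM in 5 of them, none of which was a ctrl library, so it passed the filter without the ctrl group. The angII libraries also had more genes at 1 TPM, 20062 to 23691 against 12924 to 18116 in ctrl. With that number as a covariate the log2 fold changes were 0.41 for Lamb3, 0.12 for Itgb6 and 0.23 for Itga4, and after quantile normalization they were 1.07, 0.68 and 0.16. For angII+VEGFC against angII 1 subunit, Lamb3 (-1.74, adjusted p = 0.567), had an unadjusted p below 0.05, where 8.78% of all genes did. Against ctrl it was 1 as well, Lamc1 (0.57, adjusted p = 1.0), where 1.32% did. Lamc1 was 56.3 to 72.5 TPM in ctrl and 79.2, 104 and 103 TPM in angII+VEGFC.

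In BEC 3 of 29 subunits had an unadjusted p below 0.05 for angII against ctrl, where 5.4% of all genes did. Itga6 was 185, 207, 203 and 209 TPM in ctrl, 290, 232, 318, 341 and 318 TPM in angII, and 304, 192 and 270 TPM in angII+VEGFC. All angII libraries lay above all ctrl libraries (0.54, SE 0.14, adjusted p = 0.697), while angII+VEGFC overlapped both. The others were Itga5 (0.40, adjusted p = 0.816) and Itga1 (0.22, adjusted p = 0.914). For angII+VEGFC against ctrl 4 subunits had an unadjusted p below 0.05, where 5.51% of all genes did. Itga2b, the platelet fibrinogen receptor chain, was 14.0, 7.13, 13.6 and 10.7 TPM in ctrl and 3.83, 1.61 and 7.95 TPM in angII+VEGFC (-1.35, SE 0.42, adjusted p = 0.814). A sum of 7 platelet genes was 73.4 to 168 TPM in ctrl and 46.5 to 73.5 TPM in angII+VEGFC, and its part in this value was not tested. None of the 29 (0) had an unadjusted p below 0.05 for angII+VEGFC against angII, where 2.59% of all genes did.

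In cardiomyocytes 3 of 30 subunits had an unadjusted p below 0.05 for angII against ctrl, where 9.85% of all genes did. Itgb5 was 88.3, 18.7, 53.8 and 21.2 TPM in ctrl and 203, 33.6, 153, 47.9 and 97.2 TPM in angII, with overlapping groups (1.31, SE 0.53, adjusted p = 0.425). Mice whose endothelial libraries were of batch 1 held 88.3 and 53.8 TPM in ctrl and 203, 153 and 97.2 TPM in angII. Those of batch 2 held 18.7 and 21.2 TPM in ctrl and 33.6 and 47.9 TPM in angII. The groups thus overlapped between the batches of the mice but not within either, and the fit did not include this split. Lamb3 had a log2 fold change of -0.77 (adjusted p = 0.409). Fibroblast genes summed to 2413 to 3497 TPM in ctrl and 3965 to 5595 TPM in angII, and leukocyte genes to 620 to 773 and 944 to 1771 TPM; their part was not tested. For angII+VEGFC against ctrl 1 subunit, Lamb3, had an unadjusted p below 0.05 (-1.05, adjusted p = 0.200), where 12.9% of all genes did. Lamb3 was 2.60 to 7.47 TPM in ctrl and 1.87, 1.14 and 3.83 TPM in angII+VEGFC. Between angII+VEGFC and angII 0 of 30 subunits did, where 2.41% of all genes did.

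Whether the treatments acted differently on the endothelial populations was tested as an interaction over their 36 libraries. No subunit of 32 was called in the 6 interactions (limma), where 0.00611% of all genes were called for angII against ctrl in heart LEC minus diaphragm LEC and 0% in the other 5. At an unadjusted p below 0.05, angII against ctrl gave 3 subunits for heart LEC minus BEC (7.19% of all genes), 5 for diaphragm LEC minus BEC (11% of all genes) and 2 for heart LEC minus diaphragm LEC (9.7% of all genes). Itga1 had the smallest p: its response to angII was larger in heart LEC than in diaphragm LEC by 1.28 on the log2 scale (SE 0.33, adjusted p = 0.208) and than in BEC by 1.05 (SE 0.32, adjusted p = 0.478). For angII+VEGFC against angII the counts were 2 (6.43% of all genes), 4 (7% of all genes) and 1 (4.88% of all genes) in the same order. The smallest p among them belonged to Itgam in diaphragm LEC minus BEC (-1.49, SE 0.44, adjusted p = 0.70), where Itgam was listed at 0 in all 3 diaphragm angII+VEGFC libraries. Itgam reached 1 TPM in 5 diaphragm LEC, 0 heart LEC and 0 BEC libraries, so it passed the filter only through diaphragm LEC. Its BEC values, at most 0.406 TPM, lay at the floor.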

How the data were processed

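RNA of 48 libraries was amplified with the SMART-Seq ultra low input kit and made into Nextera XT libraries, which keep no strand. The authors aligned reads with STAR 2.5.3a to GRCm38, quantified transcripts with Salmon 0.12.0 against Ensembl release 95, and deposited gene-level TPM (the unit used here), which sum to 997657 to 999929 per library. The highest correlation between any 2 libraries was 0.984, so none was counted as a duplicate.

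TPM are not counts, so log2(TPM + 1) was fitted with limma 3.58.1 in R 4.3.3 (trended variance) over genes that reached 1 TPM in 3 or more of the fitted libraries. P-values are two-sided and were adjusted by Benjamini-Hochberg over all genes tested, and a call is an adjusted p below 0.05. Treatment contrasts used the 12 libraries of a population with age and, in endothelium, sequencing batch as covariates. Population contrasts used 24 libraries with treatment, age and batch. Interactions used the 36 endothelial libraries. Figures and summaries were made with Python 3.11.15. The fits were tested on simulated data.

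Named subunits were, for each population comparison, up to 5 called subunits in each direction ranked by size, for each treatment contrast the 3 with the smallest p, the main laminin and integrin chains of endothelium and muscle, and the leukocyte and platelet chains. List genes were named by size of the called change, up to 3 in each direction. The members and lists were chosen with earlier results of these data known. Libraries of one mouse were matched through the labels: heart LEC, BEC and cardiomyocytes shared all 12 mice and the diaphragm 11 of them. Their deviations from the group means correlated at a mean of 0.083 (BEC and heart LEC), 0.053 (diaphragm and heart LEC) and 0.030 (cardiomyocytes and BEC) within a mouse, against -0.026, -0.015 and -0.009 between mice. Alternatives were a pseudocount of 0.1 TPM, no filter, no covariates, quantile normalization, the mouse as a block, ctrl libraries or single batches alone, 1 surrogate variable (the first singular vector of the residuals), the number of genes at 1 TPM as a covariate, and leaving out each library. Label ages are in months and the study's methods give weeks. The label values were used as the covariate. Results of 1 laminin chain and 1 partner gene are not reported here and are left out of the figures, but the counts include them.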

Additional observations from a re-analysis of the deposited data

Results flagged for a closer look

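Sets of 4 or 5 library values of the named subunits (ctrl and angII groups) were examined for a single library far from the rest. The angII+VEGFC groups, of 3 libraries each, were not examined. Of 44 sets 1 was flagged: Itga9 in diaphragm LEC of ctrl replicate 1, at 136 TPM, against 20.8 to 28.5 TPM in the other 3 ctrl libraries. The gap to the nearest library took 0.933 of the group's range. Chance alone flags about 1 set in 20.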

How the results depend on the processing

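Of the 60 named subunit results, 0 reversed in direction under any alternative, 1237 of the values under alternatives stayed on their side of the threshold, 47 lost it and 1 gained it. Most of the 60 were treatment results without a call, for which staying meant remaining uncalled. All 47 losses fell on called population results. Of the 1237 values, 833 came from fits that left out 1 library and kept all others. For heart LEC against BEC the count of 22 called subunits became 9 in the ctrl libraries alone, 11 within batch 1 and 14 within batch 2, and 19 to 22 when 1 library was left out. For heart LEC against diaphragm LEC the count of 4 became 0 in ctrl libraries and within batch 1, 6 within batch 2 (4 higher, 2 lower), and 2 to 5 when 1 library was left out. For cardiomyocytes against BEC the count of 24 became 21 in ctrl libraries and 23 to 25 when 1 library was left out. These settings hold fewer libraries. Pairing libraries by mouse as a replicate block gave 23, 5 and 25 calls, and 0 in each of the 6 interactions. In the treatment contrasts the count was 0 under all alternatives but one: without cardiomyocytes angII+VEGFC replicate 3, angII+VEGFC against ctrl gave 1, Itga5 (1.03, adjusted p = 0.025, against 0.444 with it and a range of 0.025 to 0.83 over all alternatives), so that leaving out 1 library gave 0 to 1. That replicate had 19306 genes at 1 TPM, against 13849 and 13226 in replicates 1 and 2 of its group. The ctrl and angII cardiomyocyte libraries had 13020 to 15816. TPM keep no read depth, so the counting error of subunits near 1 TPM is unknown.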

Other observations

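Itga9 levels in heart LEC separated by sequencing batch, with 16.5 to 51.9 TPM in batch 1 and 80.3 to 128 TPM in batch 2 and no overlap. In cardiomyocytes of the same mice, all sequenced together in batch 3, the order was the opposite, with 6.62 to 17.6 TPM in the mice of batch 1 and 2.31 to 5.38 TPM in those of batch 2. In BEC the ranges were 10.9 to 30.4 and 8.59 to 19.3 TPM and overlapped, as they did in diaphragm LEC with 28.5 to 136 and 20.8 to 62.2 TPM. Each batch held mice of all 3 treatments. Itgb5 in cardiomyocytes was 53.8 to 203 TPM in the mice of batch 1 and 18.7 to 55.5 TPM in those of batch 2. What sets the batches apart beyond sequencing is not given in the sources used here, and no cause was tested.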
